A study of Mus musculus with 140 samples.

Results

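Post-capillary venules of the kidney cortex were compared 4 h after CLP (cecal ligation and puncture) with venules of sham-operated mice. In this operation gut bacteria leak into the abdomen and cause sepsis. The comparison holds 8 libraries of the 140 in the series, those whose labels give post-capillary venules as the microvascular compartment, CLP sepsis (4 mice) or sham operation (4 mice) as the disease state, and 4 h as the time. All mice were male C57BL6/OlaHsd wild type, and the labels give no age. Other groups used beside the comparison are healthy mice at 0 h and CLP and sham mice at 24 and 72 h, with 4 mice in each, and 4 other compartments of the same mice (arterioles, glomeruli and peritubular capillaries, which like the venules were laser microdissected, and whole kidney, which was not). Libraries were made with QuantSeq, which reads the 3′ end of polyadenylated transcripts, and the deposited values are raw counts per gene. Mice are numbered within each group as in the labels, so that CLP mouse 1 and sham mouse 1 are different animals. Levels are given as CPM, counts scaled by each library's total and its TMM factor, and where 4 levels stand together they are those of mice 1 to 4 in that order.

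Post-capillary venules are the vessels in which most leukocytes leave the blood during inflammation. Inflamed venular endothelium displays P- and E-selectin, on which leukocytes roll, then chemokines that activate leukocyte integrins, and then ICAM-1 and VCAM-1, to which those integrins bind. Transcription of many of these genes is driven by the factor NF-kB downstream of toll-like receptors, tumour necrosis factor and interleukin-1, and NF-kB also induces its own inhibitors.

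The 8 libraries held 7.55 to 8.72 M counts in CLP mice and 6.36 to 10.2 M in sham mice. In CLP mice 12593 to 13267 genes were detected, and 12014 to 13408 in sham mice. Neither depth nor the number of detected genes differed in an exact two-sided permutation test of 4 against 4 (p = 0.971 and 0.886, where the smallest p possible is 0.0286). On the leading dimension of a multidimensional scaling plot CLP mouse 1 (-3.78) and sham mouse 2 (2.96) stood apart from the other libraries, which lay between -1.16 and 1.18. Among CLP mice, mouse 1 had the highest level of all 7 genes that passed the test described below, and of 26.8% of all genes tested, so results are also given without it. Endothelial markers were present. Of 15 markers of all endothelium, all were tested, and their summed level was 1165 to 1528 CPM in CLP mice and 1367 to 1707 CPM in sham mice. Of the venous and peritubular capillary markers, Nr2f2, a transcription factor of vein identity, had 169, 157, 242 and 277 CPM in CLP mice, against 199, 418, 209 and 281 CPM in sham mice. Plvap, of fenestrated and venular endothelium, had 214, 185, 225 and 262 CPM in CLP mice, against 273, 210.1, 219 and 207 CPM in sham mice. Both were counted in every library. Ackr1, an atypical chemokine receptor that marks venules, stood at 24.8 CPM in CLP mouse 1 and at 0 in every other library, and Aplnr, an apelin receptor of venous endothelium, at most 0.168 CPM in any library. The dissected material was not endothelium alone: markers of proximal tubule summed to 46684 to 70808 CPM in CLP mice and 40386 to 62178 CPM in sham mice, and markers of erythrocytes and platelets to 22804 to 112985 CPM in CLP mice and 24688 to 45865 CPM in sham mice. Markers of arterial endothelium summed to 1889 to 3261 CPM in CLP mice and 2273 to 3701 CPM in sham mice. In that order, venous and peritubular capillary markers summed to 942 to 2758 and 976 to 1275 CPM. The 2758 CPM was that of CLP mouse 1, where Vcam1, Selp, Vwf and Lrg1 held 885, 559.6, 372 and 328 CPM. These members are also described below for their change with CLP, so this sum is not a measure of venous content alone. Markers of smooth muscle, pericyte and renin cells summed to 1091 to 2204 CPM in CLP mice and 1106 to 1864 CPM in sham mice. For fibroblasts and vessel wall matrix the sums were 2011 to 6645 and 2917 to 5516 CPM. The part of cells other than venous endothelium in the results below was not tested.

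After 4 h of CLP, venules had higher levels of 7 genes than venules of sham mice. Of these, Mt1 and Mt2 encode metallothioneins, Icam1 an adhesion molecule for leukocytes, Saa3 an acute-phase protein, S100a9 a protein abundant in neutrophils, Il1rn the interleukin-1 receptor antagonist and Akap12 a kinase-anchoring scaffold. Of 9927 genes tested with the quasi-likelihood test of edgeR, 7 passed at a Benjamini-Hochberg adjusted p under 0.05 (0.0705%), and all 7 were higher with CLP. No gene passed as lower by this test, whereas 394 genes in either direction (3.97%) were under 0.05 before adjustment. DESeq2 called 378 of 11317 genes (3.34%), 198 higher and 180 lower, with the 7 genes among those higher. All 4 CLP libraries lay above all 4 sham libraries for 191 genes (1.92% of those tested) and below them for 177 (1.78%). The median log2 fold change of all tested genes was 0.02, and 50.8% were above 0. Spread between libraries was large, with a biological coefficient of variation of 1.15. The median correlation of a library with the others, on log2 CPM, was 0.503 to 0.533. Each library came from a different mouse, so differences between mice and between dissections cannot be told apart in this spread. The p-values set the group difference against it. Of the genes tested, 8195 were counted in all 8 libraries, and 6 of the 7 genes that passed were among them; Il1rn was counted in 1 of 4 sham libraries. Without CLP mouse 1, 2 genes passed, Mt1 and Mt2, and without both CLP mouse 1 and sham mouse 2, 4 genes passed, 2 of them among the 7.

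**Figure D1:**
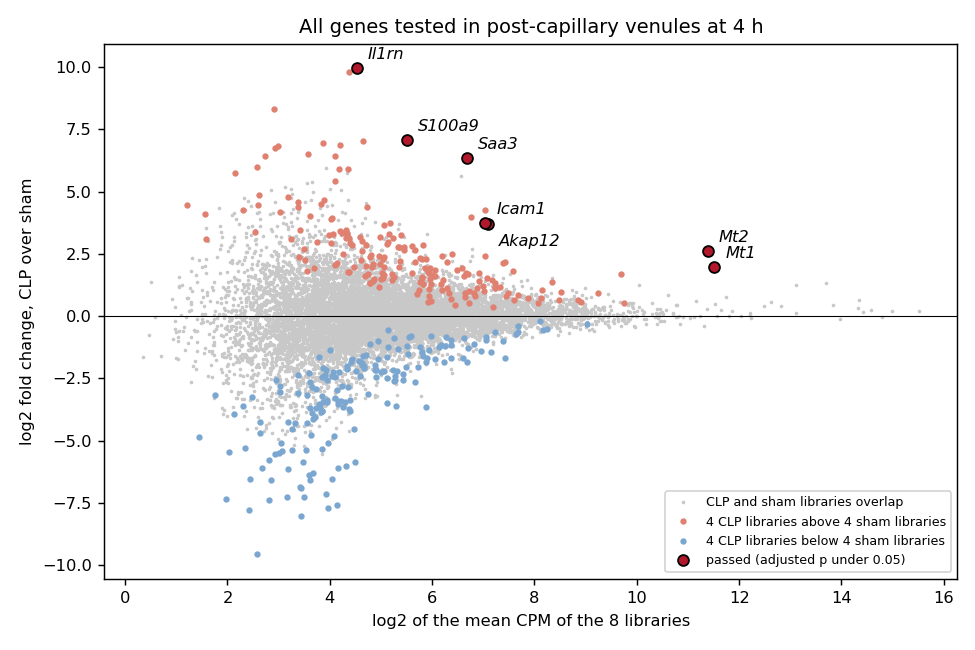
Log2 fold change of CLP over sham (vertical) against log2 of the mean CPM of the 8 libraries (horizontal) for the 9927 genes tested in venules at 4 h; each point is a gene. The 7 genes that passed are named and all lie above 0, Mt1 and Mt2 at far higher levels than the other 5; coloured small points are genes whose CLP and sham libraries do not overlap.

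Metallothioneins, small cysteine-rich proteins that bind zinc and copper, were the most abundant of the genes that passed. Mt2 had 6240.1, 3637, 5243 and 3346 CPM in CLP mice, against 1053, 366, 526 and 1047 CPM in sham mice. Every CLP mouse lay above every sham mouse, and the lowest CLP mouse lay far above the highest sham mouse. Mt2 averaged 4617 ± 1366 CPM in CLP mice and 748 ± 355 CPM in sham mice (SD, n = 4 each), a log2 fold change of 2.63 ± 0.31 (SE; adjusted p = 6.08e-06, edgeR). Mt1 had 6107, 4767, 4704 and 3129 CPM in CLP mice, against 1363, 833, 941 and 1609.8 CPM in sham mice. The groups again did not overlap, CLP mice 2 and 3 lay close together, and sham mouse 4 was the highest sham mouse. Mt1 averaged 4677 ± 1218 CPM in CLP mice and 1187 ± 363 CPM in sham mice (SD, n = 4 each), a log2 fold change of 1.98 ± 0.27 (SE; adjusted p = 7.85e-05, edgeR). Both kept their call without CLP mouse 1, with log2 fold changes of 2.45 for Mt2 (adjusted p = 0.000293, edgeR) and 1.82 for Mt1 (adjusted p = 0.00292, edgeR). In healthy venules Mt1 stood at 465 ± 156 CPM and Mt2 at 191 ± 84.7 CPM, below the sham means. Of 10 metallothionein and zinc-transporter genes listed, 6 were tested and 2 passed, both higher, against 0.0705% of all genes tested. Of the 6, 5 had a log2 fold change above 0 (50.8% of all genes tested), with a median of 1.45 that includes Mt1 and Mt2. The zinc exporter Slc30a1, another gene induced by zinc, had 0.531, 131, 24.8 and 51.4 CPM in CLP mice, against 32.9, 24.4, 41.7 and 10.2 CPM in sham mice, and these groups overlapped (log2 fold change 0.92 ± 1.08, adjusted p = 1.00, edgeR). Mtf1, the zinc-sensing transcription factor that binds metal response elements, had 50.3, 23.5, 22.4 and 0.139 CPM in CLP mice, against 0.221, 0.336, 85.1 and 56.5 CPM in sham mice, also with overlap. Both metallothioneins are also targets of the glucocorticoid receptor, and of 15 glucocorticoid targets listed, all were tested and only Mt1 and Mt2 passed, against the same 0.0705%. Of the 15, 13 had a log2 fold change above 0 (50.8% of all genes tested). Their median was 0.77, and 0.35 to 0.97 over all alternatives. Fkbp5, a co-chaperone that glucocorticoids induce, had 571, 262, 156 and 555 CPM in CLP mice, against 223, 72.7, 259 and 335 CPM in sham mice. Tsc22d3, which encodes the glucocorticoid-induced leucine zipper, had 167, 71.4, 248 and 246 CPM in CLP mice, against 233, 152, 124 and 420.3 CPM in sham mice. Neither passed, and the groups of both overlapped.

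Mt2 and Mt1 lie side by side on chromosome 8, at 94172664 to 94173568 and 94179082 to 94180327 on the plus strand (GENCODE M21, GRCm38), and rose together, so their promoters are shown. Each window runs from 250 bases before to 50 after a RefSeq transcript start (GRCm38.p6), plus strand, 5′ to 3′, and capitals mark every match on either strand to the core of the metal response element, searched as TGCACNC or TGCGCNC. This search was added after the metallothioneins were seen to pass.
Mt2, chr8:94172368-94172667: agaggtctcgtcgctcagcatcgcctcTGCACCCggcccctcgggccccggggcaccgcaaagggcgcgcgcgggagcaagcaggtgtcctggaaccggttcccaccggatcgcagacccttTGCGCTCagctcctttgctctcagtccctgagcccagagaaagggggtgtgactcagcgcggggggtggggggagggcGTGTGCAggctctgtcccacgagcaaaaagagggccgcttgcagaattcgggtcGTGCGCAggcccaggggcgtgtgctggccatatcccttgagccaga
Mt1, chr8:94178839-94179138: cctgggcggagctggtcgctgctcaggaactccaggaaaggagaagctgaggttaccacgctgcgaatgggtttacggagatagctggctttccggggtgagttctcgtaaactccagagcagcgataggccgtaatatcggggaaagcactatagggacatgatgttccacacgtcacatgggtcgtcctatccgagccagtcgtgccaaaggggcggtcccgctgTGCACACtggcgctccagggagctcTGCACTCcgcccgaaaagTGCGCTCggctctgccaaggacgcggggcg
The Mt2 window held 4 matches and the Mt1 window 3. At least 1 match stood in 25.7% of the 32851 promoter windows of the table, so a single match is common. How many windows hold 3 or 4 matches was not counted, so these numbers have no background to be set against. Among the other genes that passed, the Icam1 window held 1 match and those of S100a9, Saa3 and Il1rn none. The Mt2 window also held an AP-1 match (TGANTCA), which 7.81% of windows had, and neither window held the NF-kB pattern (GGG, any 3 bases, TTCC), which 5.56% had. These are matches of letters, not sites shown to be bound.

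**Figure D2:**
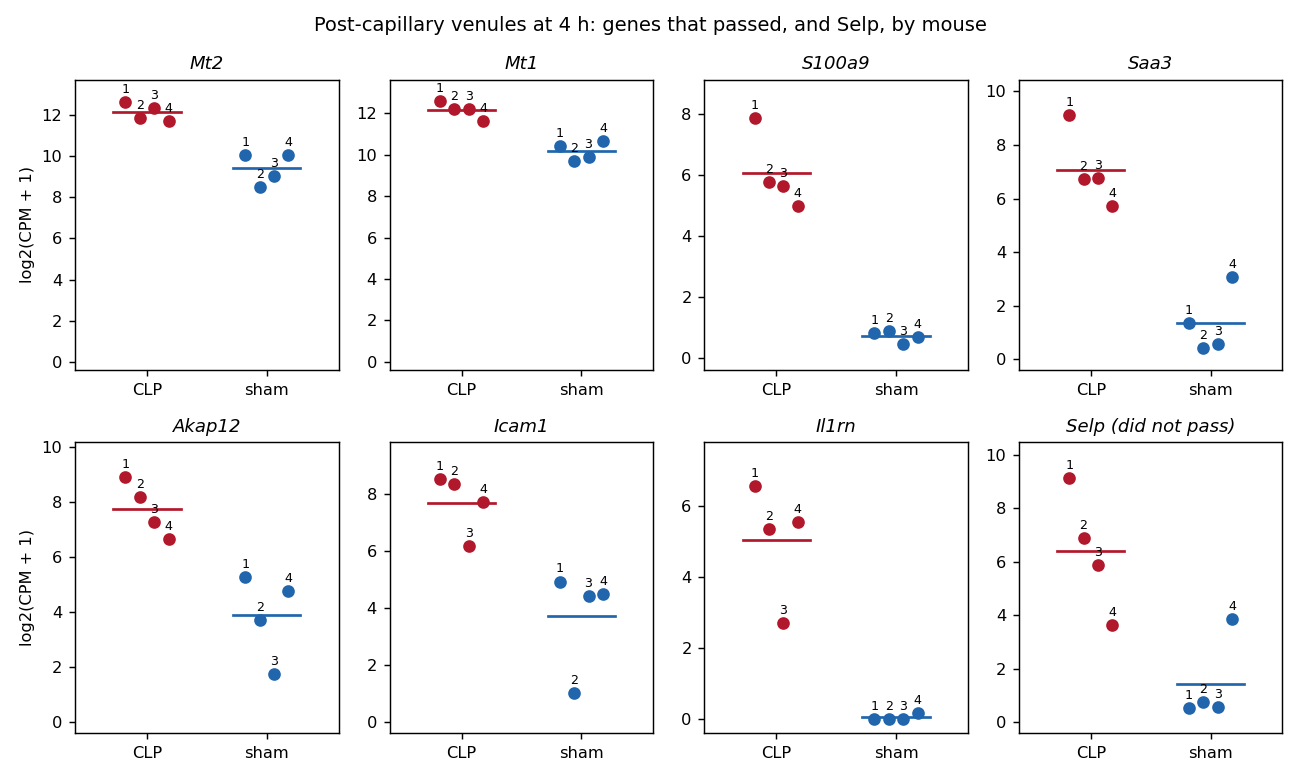
Levels of the 7 genes that passed in venules at 4 h, and of Selp, which did not, as log2(CPM + 1) in each mouse; numbers beside points are mouse numbers within a group and lines are group means. CLP and sham mice overlap for Selp alone of the 8 genes, and CLP mouse 1 is the highest in every panel.

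Among adhesion molecules Icam1 rose. It encodes ICAM-1, to which integrins of rolling leukocytes bind to arrest, and it had 372, 329.7, 71.2 and 209.9 CPM in CLP mice, against 29.4, 1.01, 20.5 and 21.3 CPM in sham mice. Every CLP mouse was above every sham mouse, CLP mouse 3 was the lowest of its group and sham mouse 2 was close to 0. Icam1 averaged 246 ± 135 CPM in CLP mice and 18.1 ± 12.1 CPM in sham mice (SD, n = 4 each), a log2 fold change of 3.76 ± 0.69 (SE; adjusted p = 0.0113, edgeR). Without CLP mouse 1 the log2 fold change was 3.49 and the call was lost (adjusted p = 0.151, edgeR), as it was without CLP mouse 2 (adjusted p = 0.0761, edgeR) and without sham mouse 3 (adjusted p = 0.0983, edgeR). Healthy venules stood at 30.4 ± 28.7 CPM. Of 14 adhesion molecules listed, 11 were tested, 1 passed (0.0705% of all genes tested), and 8 of 11 had a log2 fold change above 0 (50.8% of all genes tested). The median was 0.48, but 0.24 without CLP mouse 1 and -0.10 to 1.00 over all alternatives, below 0 without both CLP mouse 1 and sham mouse 2.

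The selectins that mediate rolling did not pass. Selp, which encodes P-selectin, stored in endothelium and platelets, had 559.6, 117, 58.4 and 11.5 CPM in CLP mice, against 0.442, 0.672, 0.477 and 13.4 CPM in sham mice. CLP mice 1 to 3 lay above every sham mouse, but CLP mouse 4 lay below sham mouse 4, and CLP mouse 1 alone held most of the group's total. The log2 fold change was 5.63 ± 1.61 (SE; adjusted p = 0.742, edgeR), whereas DESeq2 called the gene (adjusted p = 6.13e-05). Sele, which encodes E-selectin, was too low to be tested, with 26.4, 0.269, 0.127 and 0 CPM in CLP mice and at most 0.191 CPM in any sham mouse. Its counts came almost wholly from CLP mouse 1. Vcam1, whose product binds integrins of monocytes and lymphocytes, had 885, 174, 196 and 104 CPM in CLP mice, against 124, 110.0, 111 and 151 CPM in sham mice. CLP mouse 1 stood far above all others, CLP mouse 4 lay below all sham mice, and the log2 fold change of 1.45 ± 0.49 did not pass (adjusted p = 0.742, edgeR). Pecam1 and Icam2, adhesion molecules of resting endothelium, had log2 fold changes of 0.10 ± 0.44 and 0.74 ± 1.13 (adjusted p = 1.00 and 1.00, edgeR), with overlapping groups.

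Of 21 chemokine genes listed, 20 were in the table, 7 were tested and none passed by edgeR; the median log2 fold change of the 7 was 0.85. It was 0.55 without CLP mouse 1 and -0.38 to 1.23 over all alternatives, below 0 when only genes counted in all 8 libraries were kept. Cxcl1, a ligand of the neutrophil receptor CXCR2, had 99.1, 25.1, 25.6 and 49.3 CPM in CLP mice, against 0.553, 0, 0.477 and 0.377 CPM in sham mice. The lowest CLP mouse lay far above the highest sham mouse, yet the log2 fold change of 7.05 ± 1.67 did not pass (adjusted p = 0.139, edgeR). DESeq2 called it (adjusted p = 6.85e-10). Over the group, Cxcl1 had 1491 counts in CLP mice and 13 in sham mice. Cxcl10, an interferon-induced attractant of T cells, had 98.6, 27.1, 9.05 and 10.1 CPM in CLP mice, against 0.332, 0.168, 0.286 and 0.377 CPM in sham mice. These groups did not overlap either, and the log2 fold change of 6.88 ± 1.91 did not pass (adjusted p = 0.429, edgeR), whereas DESeq2 called it (adjusted p = 4.73e-07). Healthy venules held 29.03 ± 36.4 CPM of Cxcl10, and their range of 0.387 to 79.6 CPM takes in CLP mice 2 to 4 and starts just above the highest sham mouse. Cxcl12, a chemokine that vessels make constitutively, was lower in every CLP mouse, with 151, 100.1, 119 and 73.6 CPM in CLP mice, against 267, 211, 183 and 232 CPM in sham mice. Its log2 fold change of -1.01 ± 0.43 did not pass (adjusted p = 1.00, edgeR). Cxcl2, the other main neutrophil chemokine, was too low to be tested, with 60.5, 12.2, 0.510 and 4.85 CPM in CLP mice and at most 0.251 CPM in sham mice.

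Among cytokines and their receptors Il1rn passed. It encodes the antagonist that occupies the interleukin-1 receptor without signalling, and it had 93.2, 40.02, 5.48 and 46.01 CPM in CLP mice, against 0, 0, 0 and 0.126 CPM in sham mice. Every CLP mouse had counts, 3 of 4 sham mice had none, and CLP mouse 3 was far below the other CLP mice. In all, CLP mice held 1376 counts and sham mice 1, a CPM ratio of 1532 with an exact 95% counting interval of 274 to 60543, which covers counting error only (adjusted p = 0.0340, edgeR). The call was lost without CLP mouse 1 (adjusted p = 0.709, edgeR) and in 5 of the other 7 fits that left out a mouse. Il1rn has 3 promoter windows in the table, and the first is shown because it holds matches to both inflammatory patterns searched, NF-kB (in capitals) and AP-1 (TGANTCA, not in capitals).
Il1rn, chr2:24336610-24336909, plus strand: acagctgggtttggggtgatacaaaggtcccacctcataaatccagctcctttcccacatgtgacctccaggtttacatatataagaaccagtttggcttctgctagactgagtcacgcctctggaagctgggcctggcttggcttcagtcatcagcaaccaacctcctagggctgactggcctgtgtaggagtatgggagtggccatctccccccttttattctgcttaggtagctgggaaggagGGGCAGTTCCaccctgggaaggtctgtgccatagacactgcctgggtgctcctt
The other windows, which overlap each other, share 1 NF-kB match and hold no AP-1 match. NF-kB matches stood in 5.56% of all windows and AP-1 matches in 7.81%. No match to this NF-kB pattern stood in the windows of Icam1, Saa3 or S100a9. The pattern is strict and misses variants: the Icam1 window holds tggaaattcc, which differs from it in the first base only. A window without a match can therefore still hold an NF-kB site. Of 23 cytokine and receptor genes listed, 12 were tested and 1 passed (0.0705% of all genes tested). Of the 12, 11 had a log2 fold change above 0 (50.8% of all genes tested), with a median of 1.52. Il1b, the agonist, had 66.98, 45.3, 14.7 and 17.2 CPM in CLP mice, against 0.111, 0.168, 14.7 and 31.8 CPM in sham mice, and these groups overlapped. Tnfrsf1a, the main receptor of tumour necrosis factor, was higher in every CLP mouse, with 216, 177, 146 and 165 CPM in CLP mice, against 55.04, 121, 28.9 and 57.98 CPM in sham mice, but its log2 fold change of 1.42 ± 0.52 did not pass (adjusted p = 0.827, edgeR). Tnfrsf1b, the second receptor, had 49.6, 48.3, 20.1 and 0.277 CPM in CLP mice, against 0, 0, 5.44 and 0 CPM in sham mice, so that CLP mouse 4 lay below sham mouse 3 (log2 fold change 4.41 ± 2.08, adjusted p = 1.00, edgeR). Il6, Tnf and Csf3, which encode leukocyte-activating cytokines, were under the filter on low counts. Csf3 was counted in CLP mice 1, 2 and 4 (16.8, 1.61 and 32.6 CPM), Il6 in CLP mice 1 and 2 and Tnf in CLP mouse 4 alone.

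Of 20 NF-kB subunits and feedback targets, 16 were tested and none passed, while all 16 had a log2 fold change above 0, against 50.8% of all genes tested, and their median was 1.85, against 0.02. Without CLP mouse 1 the median was 1.23. In 2 of 16 every CLP mouse lay above every sham mouse, against 1.92% of all genes tested. One was Nfkbia, which encodes the inhibitor IkB-alpha and is itself induced by NF-kB, with 2272, 1146, 743 and 909 CPM in CLP mice, against 491, 135, 314 and 645 CPM in sham mice. CLP mouse 1 was the highest and sham mouse 4 the closest to the CLP group, and the log2 fold change of 1.68 ± 0.38 did not pass (adjusted p = 0.139, edgeR). The other was Nfkb2, the precursor of a subunit of the non-canonical pathway, with 194, 72.8, 55.2 and 76.9 CPM in CLP mice, against 17.8, 20.8, 3.63 and 12.8 CPM in sham mice, a log2 fold change of 2.86 ± 0.82 (adjusted p = 0.528, edgeR). Rela, the main activating subunit, had a log2 fold change of 0.86 ± 0.60 and Nfkb1 one of 2.16 ± 1.33, with overlapping groups. Sod2, a mitochondrial superoxide dismutase often used as an NF-kB readout, had 526, 235, 361 and 311 CPM in CLP mice, against 237, 197, 458 and 414 CPM in sham mice, a log2 fold change of 0.13 ± 0.37 with overlapping groups. Tnfaip3 and Relb, a deubiquitinase and a subunit that NF-kB induces, were under the filter on low counts, at 39.8, 7.92, 3.19 and 0.416 CPM for Tnfaip3 and 22.2, 41.2, 0 and 41.02 CPM for Relb in CLP mice 1 to 4, and at most 0.251 and 0.332 CPM in sham mice.

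Saa3, a serum amyloid A made outside the liver in inflamed tissue, was among the genes that passed, with 549, 105, 107 and 52.2 CPM in CLP mice, against 1.55, 0.336, 0.477 and 7.53 CPM in sham mice. Every CLP mouse lay above every sham mouse, CLP mouse 1 held several times the level of the other CLP mice, and sham mouse 4 was the highest sham mouse. Saa3 averaged 203 ± 232 CPM in CLP mice and 2.47 ± 3.41 CPM in sham mice (SD, n = 4 each), a log2 fold change of 6.35 ± 0.98 (SE; adjusted p = 0.00265, edgeR). Without CLP mouse 1 it was 5.13 and did not pass (adjusted p = 0.375, edgeR), and without sham mouse 1 the adjusted p was 0.0923 (edgeR). Of 17 STAT3 targets and acute-phase genes listed, 12 were tested and 1 passed (0.0705% of all genes tested). Of the 12, 10 were above 0 (50.8% of all genes tested), with a median log2 fold change of 1.40. Lcn2, an iron-siderophore binding protein of neutrophils and injured tubule, had 598, 280.4, 67.2 and 21.2 CPM in CLP mice, against 37.03, 37.5, 0.191 and 0.628 CPM in sham mice, with CLP mouse 4 below sham mice 1 and 2. Socs3, a feedback inhibitor of STAT3, had 146, 13.97, 40.1 and 74.8 CPM in CLP mice, against 30.6, 7.05, 13.5 and 0.251 CPM in sham mice, also with overlap. Stat3 itself had a log2 fold change of 0.97 ± 0.37 (adjusted p = 0.981, edgeR). Lrg1, a glycoprotein of venous endothelium, had one of 1.10 ± 0.44 (adjusted p = 1.00, edgeR).

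Akap12, a scaffold that anchors protein kinases A and C at the membrane and is expressed by endothelium, stromal and mesangial cells, rose in CLP venules, with 479, 287, 153 and 99.5 CPM in CLP mice, against 37.9, 11.9, 2.39 and 25.98 CPM in sham mice. The groups did not overlap, and the lowest CLP mouse, mouse 4, stood well above the highest sham mouse. Akap12 averaged 255 ± 169 CPM in CLP mice and 19.6 ± 15.6 CPM in sham mice (SD, n = 4 each), a log2 fold change of 3.70 ± 0.66 (SE; adjusted p = 0.00653, edgeR). Without CLP mouse 1 it was 3.19 and did not pass (adjusted p = 0.267, edgeR). Healthy venules stood at 16.3 ± 10.01 CPM, close to the sham mean.

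S100a9, which with S100a8 forms calprotectin, the main cytosolic protein of neutrophils, had 230.4, 53.05, 48.8 and 30.9 CPM in CLP mice, against 0.774, 0.840, 0.382 and 0.628 CPM in sham mice. All sham mice were near 0, and CLP mouse 1 was far above the other CLP mice. S100a9 averaged 90.8 ± 93.6 CPM in CLP mice and 0.656 ± 0.203 CPM in sham mice (SD, n = 4 each), a log2 fold change of 7.09 ± 1.17 (SE; adjusted p = 0.00237, edgeR), and without CLP mouse 1 it was 6.05 and did not pass (adjusted p = 0.795, edgeR). Its partner S100a8 had 134, 191, 31.7 and 79.5 CPM in CLP mice, against 0.884, 41.3, 0.763 and 1.51 CPM in sham mice. Sham mouse 2 lay above CLP mouse 3, and the log2 fold change of 3.30 ± 1.05 did not pass (adjusted p = 0.722, edgeR) in the fit of all 8 mice; without sham mouse 2 its log2 fold change was 6.68 and passed. Of 17 neutrophil markers listed, 4 were tested (S100a8, S100a9, Lcn2 and Fpr2), 1 passed (0.0705% of all genes tested), and the median log2 fold change was 3.49. This median was 2.94 to 5.47 over all alternatives and moved by more than its spread in 5 of 17. S100a9 met the filter on low counts through the CLP mice, so the median leans towards markers high with CLP and is description only. The summed level of all 17 was 1117, 615, 205 and 168 CPM in CLP mice, against 39.2, 80.1, 28.4 and 12.9 CPM in sham mice. CLP mice were all above sham mice in this sum, most of which came from S100a8, S100a9 and Lcn2 in CLP mice. Defining markers were sparse. Cxcr2 had no counts in any library, and Ly6g and Camp had none in any CLP mouse but were counted among sham mice. Csf3r, the receptor of granulocyte colony-stimulating factor, had 18.2, 0, 0 and 20.6 CPM in CLP mice and none in sham mice. Ngp, of neutrophil granules, had 22.4, 72.9, 6.12 and 0 CPM in CLP mice and at most 0.126 CPM in sham mice. In such dissected tissue, more or fewer cells of a type and more or less RNA per cell cannot be told apart, and the part of neutrophil content in the changes above was not tested.

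Markers of macrophages and monocytes also summed higher in every CLP mouse, at 723, 733, 781 and 648 CPM in CLP mice, against 645, 363, 477 and 374 CPM in sham mice, the lowest CLP mouse lying barely above sham mouse 1. Of 17 listed, 15 were tested and none passed, with a median log2 fold change of 0.47 and 10 of 15 above 0 (50.8% of all genes tested). Without CLP mouse 1 the median was 0.87. Lyz2, the lysozyme of myeloid cells, was the most abundant, with 301, 173, 198 and 192 CPM in CLP mice, against 142, 63.3, 69.4 and 67.3 CPM in sham mice, and did not pass (log2 fold change 1.34 ± 0.46, adjusted p = 0.753, edgeR). Cx3cr1, the fractalkine receptor of resident macrophages and patrolling monocytes, went the other way, with 0.133, 0.269, 3.95 and 0.139 CPM in CLP mice, against 30.1, 40.6, 9.35 and 9.41 CPM in sham mice, and did not pass either (log2 fold change -4.29 ± 2.01, adjusted p = 1.00, edgeR). The complement genes C1qa, C1qb and C1qc, of resident macrophages, overlapped between groups. None of 13 lymphocyte markers passed the filter on low counts, and their summed level was 18.2 to 90.7 CPM in CLP mice and 6.21 to 26.1 CPM in sham mice. Haemoglobin genes were high and uneven: Hbb-bs, an adult beta globin, had 44489, 30568, 8659 and 17044 CPM in CLP mice, against 24195, 15267, 11757 and 13332 CPM in sham mice. CLP mice 1 and 2 were the highest of the 8 for Hba-a1, with 36129, 23610.2, 7437 and 8903 CPM in CLP mice, against 10295, 8616, 6457 and 5140.1 CPM in sham mice (log2 fold change 1.32 ± 0.49, adjusted p = 1.00, edgeR). The part of erythrocyte transcripts in the results was not tested.

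**Figure D3:**
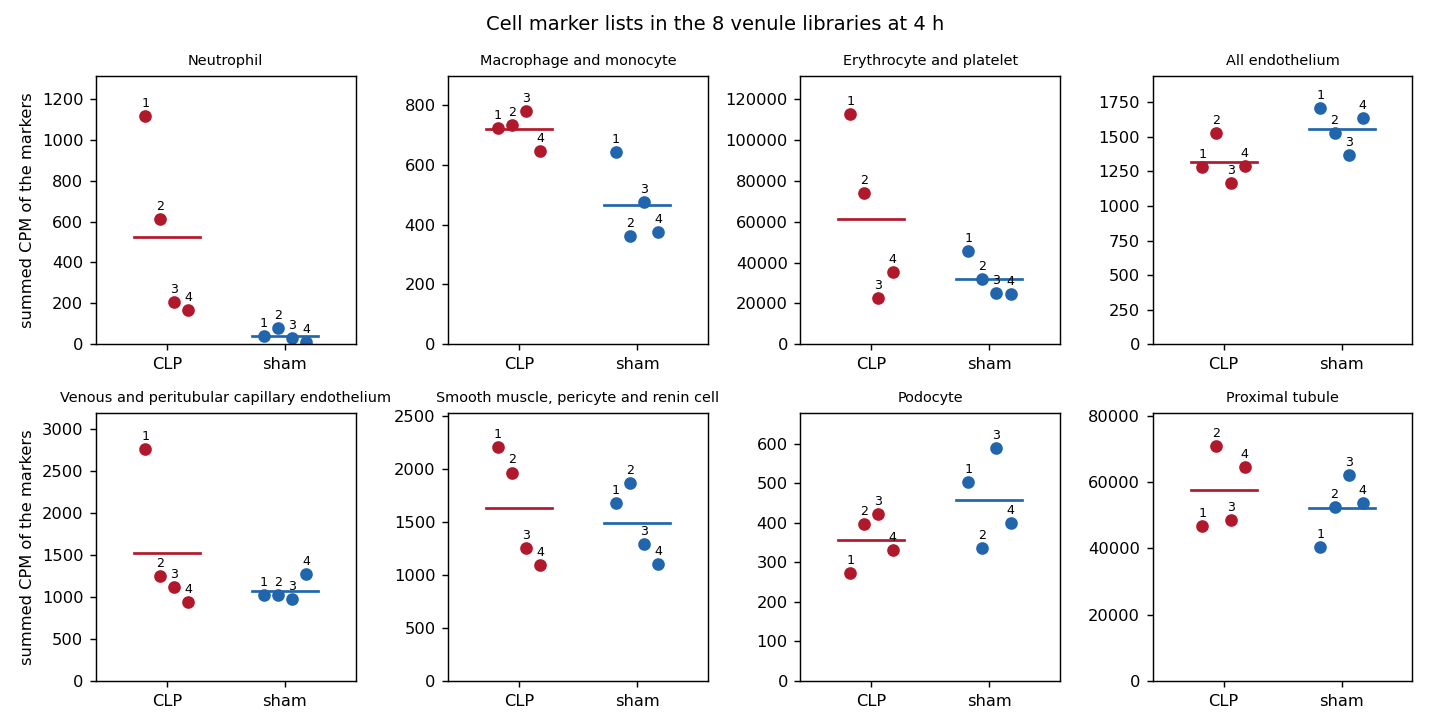
Summed CPM of 8 cell marker lists in each venule library at 4 h; numbers are mouse numbers within a group, lines are group means and each axis starts at 0. CLP mice lie above sham mice for neutrophil markers (168 to 1117 against 12.9 to 80.1 CPM) and for macrophage and monocyte markers, and overlap with them in the other 6 lists.

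Of 23 interferon-response genes, 17 were tested and none passed, with 13 of 17 above 0 (50.8% of all genes tested) and a median log2 fold change of 1.63. For 6 of the 17 every CLP mouse lay above every sham mouse, against 1.92% of all genes tested. Gbp5, a guanylate-binding protein of inflammasome assembly, had 81.4, 56.1, 15.9 and 7.76 CPM in CLP mice, against 0.221, 0, 0.286 and 2.13 CPM in sham mice (log2 fold change 5.90 ± 1.81, adjusted p = 0.596, edgeR). Rsad2, which encodes the antiviral enzyme viperin, had 151, 53.2, 32.5 and 106 CPM in CLP mice, against 8.18, 14.4, 25.1 and 0.628 CPM in sham mice (log2 fold change 2.82 ± 0.97, adjusted p = 0.742, edgeR). The remaining 4 were Ifit1, Isg15, Stat2 and Oasl2, with log2 fold changes of 1.63 to 2.94. Not every member went this way: Irgm2 had 2.52, 12.6, 7.90 and 15.9 CPM in CLP mice, against 36.8, 1.51, 36.3 and 79.6 CPM in sham mice, and Ifit3, Irf7 and Bst2 had fold changes below 0. Iigp1, an interferon-inducible GTPase and the most abundant of the list, had 457, 105, 151 and 24.5 CPM in CLP mice, against 52.2, 22.2, 12.7 and 49.1 CPM in sham mice, with CLP mouse 4 below 2 sham mice (log2 fold change 2.44 ± 0.67, adjusted p = 0.429, edgeR).

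All 11 tested of 18 immediate early genes had log2 fold changes above 0 (50.8% of all genes tested), none passed, and the median was 0.79. Junb, an AP-1 subunit, had 184, 76.4, 165 and 87.6 CPM in CLP mice, against 22.7, 42.5, 24.5 and 24.3 CPM in sham mice, the only gene of the list without overlap (1.92% of all genes tested had CLP above sham), and a log2 fold change of 2.17 ± 0.64 (adjusted p = 0.546, edgeR). Fosl2, its partner in AP-1, had 379, 165, 83.5 and 99.6 CPM in CLP mice, against 19.1, 48.9, 56.3 and 103 CPM in sham mice, where sham mouse 4 lay above CLP mice 3 and 4 (log2 fold change 1.68 ± 0.58, adjusted p = 0.742, edgeR).

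**Figure D4:**
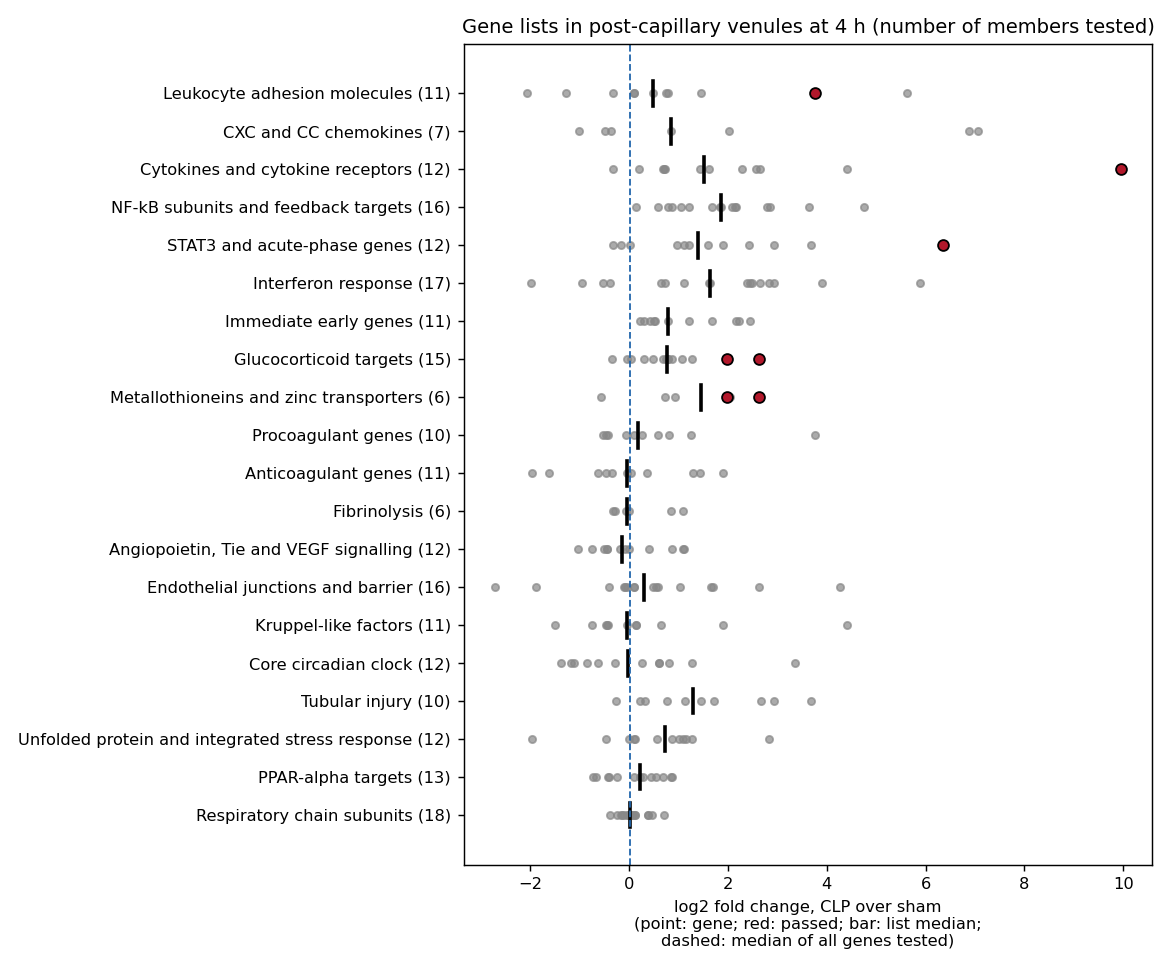
Log2 fold changes of CLP over sham in venules at 4 h for the tested members of 20 gene lists (number tested in brackets); each point is a gene, red points passed, black bars are list medians and the dashed line is the median of all genes tested, 0.02. Members of the NF-kB list all lie above 0, whereas the coagulation, clock, Kruppel-like factor and respiratory chain lists centre near the dashed line.

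Coagulation genes, which the title of the series names, showed no called change in venules at 4 h. Of 23 procoagulant genes 10 were tested, of 16 anticoagulant genes 11 and of 11 fibrinolysis genes 6, none passed by edgeR, and the medians of the log2 fold change were 0.18, -0.05 and -0.04. Each median changed sign under some alternatives, within -0.24 to 1.24, -0.36 to 0.37 and -0.62 to 0.21 in that order. In none of the 3 lists did any tested member have all CLP mice on one side of all sham mice. Of all genes tested, 1.92% had CLP above sham and 1.78% below. With so few members tested, none is near that share. Vwf, the platelet-binding factor stored in venous endothelium, had 372, 73.998, 14.02 and 40.5 CPM in CLP mice, against 97.4, 21.3, 1.53 and 89.99 CPM in sham mice, with overlap (log2 fold change 1.25 ± 1.02, adjusted p = 1.00, edgeR). Thbd, which encodes thrombomodulin, an endothelial cofactor that turns thrombin to the activation of protein C, had 70.8, 109.7, 52.8 and 86.2 CPM in CLP mice, against 228, 65.5, 98.4 and 106 CPM in sham mice (log2 fold change -0.64 ± 0.55, adjusted p = 1.00, edgeR). Procr, the endothelial protein C receptor, had 133, 21.5, 0.382 and 11.9 CPM in CLP mice, against 31.2, 0, 19.1 and 18.3 CPM in sham mice. For all 3 genes mice of a group were spread over a wider range than the group means lay apart. Among the larger fold changes above 0, Serpine2, an inhibitor of thrombin and plasminogen activators, had 31.04, 161, 52.9 and 98.8 CPM in CLP mice, against 17.2, 47.2, 10.7 and 16.9 CPM in sham mice, with CLP mouse 1 below sham mouse 2 (log2 fold change 1.903 ± 0.81, adjusted p = 1.00, edgeR). Pf4, platelet factor 4, had 147, 47.5, 24.1 and 0.277 CPM in CLP mice, against 2.87, 0, 0.191 and 12.9 CPM in sham mice, with CLP mouse 4 near 0 (log2 fold change 3.77 ± 1.56, adjusted p = 1.00, edgeR). Plat, the tissue plasminogen activator, had 175, 8.33, 30.7 and 53.2 CPM in CLP mice, against 43.5, 2.35, 37.9 and 65.4 CPM in sham mice, again with overlap. None of these 3 genes separated the groups. The largest below 0 were Nt5e, an ectoenzyme that makes adenosine, and Tfpi, the inhibitor of the tissue factor pathway. Nt5e had 2.39, 0.537, 17.6 and 0.554 CPM in CLP mice, against 0.221, 40.1, 14.98 and 26.9 CPM in sham mice (log2 fold change -1.96 ± 1.83, adjusted p = 1.00, edgeR). Tfpi had 10.2, 0.403, 13.4 and 8.31 CPM in CLP mice, against 24.8, 59.3, 10.8 and 5.40 CPM in sham mice (log2 fold change -1.63 ± 1.602, adjusted p = 1.00, edgeR), and the groups of both overlapped. F3, the tissue factor that starts coagulation, fell under the filter on low counts, with 0.531, 0, 0 and 0 CPM in CLP mice, against 0.442, 0, 0 and 2.64 CPM in sham mice.

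Genes that set endothelial quiescence and barrier function did not pass. Of 15 genes of angiopoietin, Tie and VEGF signalling 12 were tested, with a median log2 fold change of -0.14 (-0.31 to 0.05 over all alternatives). Kdr, the main VEGF receptor, had 133, 25.5, 63.8 and 159.6 CPM in CLP mice, against 217, 268, 189 and 111 CPM in sham mice, with CLP mouse 4 above sham mouse 4 (log2 fold change -1.04 ± 0.51, adjusted p = 1.00, edgeR). Tek, the angiopoietin receptor, had 13.5, 0.269, 35.4 and 11.2 CPM in CLP mice, against 20.6, 0.840, 2.39 and 4.27 CPM in sham mice, and its antagonist ligand Angpt2 had 0.929, 6.31, 1.15 and 23.3 CPM in CLP mice, against 16.2, 7.89, 19.3 and 0 CPM in sham mice. Both were low and overlapped. Of 18 junction and barrier genes 16 were tested, with a median of 0.29 (-0.05 to 0.55 over all alternatives). Cdh5, the cadherin of endothelial junctions, had 83.96, 36.7, 2.55 and 15.7 CPM in CLP mice, against 49.4, 0.504, 12.3 and 5.65 CPM in sham mice. Adamts4, a protease of matrix proteoglycans, was the only gene of the 16 without overlap (1.92% of all genes tested had CLP above sham), with 558, 314, 82.3 and 46.7 CPM in CLP mice, against 0.774, 33.3, 17.9 and 0.377 CPM in sham mice. Its levels were spread widely among CLP mice, and it did not pass (log2 fold change 4.26 ± 1.52, adjusted p = 1.00, edgeR).

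Since fewer than 10 genes passed in either direction, the genes of smallest p that had counts in all 8 libraries, a mean of at least 5 CPM and groups that did not overlap are given too, as not passing. Above sham, these were Gadd45g, Nfkbia, Il4ra and Kcnk5. Gadd45g, a stress-induced regulator of growth arrest, came closest, with 229.6, 335, 128 and 196 CPM in CLP mice, against 53.4, 39.3, 15.7 and 56.7 CPM in sham mice (log2 fold change 2.43 ± 0.53, adjusted p = 0.0629, edgeR). Il4ra, the receptor chain shared by interleukins 4 and 13, had 348, 443, 195 and 111 CPM in CLP mice, against 94.7, 110.3, 25.8 and 17.4 CPM in sham mice (log2 fold change 2.14 ± 0.55, adjusted p = 0.305, edgeR). Here CLP mouse 4 lay just above sham mouse 2. Kcnk5, a background potassium channel, had 175, 261, 234 and 458 CPM in CLP mice, against 16.2, 91.03, 17.3 and 128 CPM in sham mice (log2 fold change 2.16 ± 0.56, adjusted p = 0.342, edgeR). Below sham, the 10 of smallest p are given. Mrps25, of the mitochondrial ribosome, had the smallest, with 4.24, 2.42, 10.96 and 17.05 CPM in CLP mice, against 62.01, 225, 109.5 and 39.5 CPM in sham mice (log2 fold change -3.65 ± 0.87, adjusted p = 0.139, edgeR). Ehd4, an endocytic trafficking protein, had 109.6, 73.1, 120.4 and 27.7 CPM in CLP mice, against 305, 334, 228 and 179 CPM in sham mice (log2 fold change -1.66 ± 0.47, adjusted p = 0.505, edgeR), and Fundc2, of the mitochondrial outer membrane, had 27.2, 51.3, 33.5 and 65.96 CPM in CLP mice, against 189, 272, 107 and 71.4 CPM in sham mice (log2 fold change -1.84 ± 0.57, adjusted p = 0.632, edgeR). The other 7 were Tdrp, Fam20a, Kantr, Asnsd1, Zfp950, Lrp4 and Fam110a, whose log2 fold changes lay between -7.59 and -5.85 with adjusted p of 0.354 to 0.742 (edgeR). In all 7 the CLP libraries were at or under 2.49 CPM, and most lay under the 0.382 to 0.416 CPM that 3 counts give in these libraries, so the fitted fold changes depend on the prior count. DESeq2 called each of the 10 lower.

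The same mice gave values of the 7 genes in 4 other compartments. Mt1 and Mt2 passed in all other compartments at 4 h too. In arterioles Mt1 averaged 22102 ± 9436 CPM in CLP mice and 2161 ± 1260.5 CPM in sham mice, and in glomeruli 10271 ± 4228 CPM in CLP mice and 940.4 ± 129 CPM in sham mice (SD, n = 4 each), log2 fold changes of 3.35 ± 0.44 (adjusted p = 0.00703, edgeR) and 3.45 ± 0.26 (adjusted p = 6.08e-07, edgeR). In peritubular capillaries the log2 fold change was 1.71 ± 0.33 for Mt1 and 2.61 ± 0.36 for Mt2. Icam1 averaged 223 ± 201 CPM in CLP mice and 128 ± 153 CPM in sham mice in arterioles (adjusted p = 1.00, edgeR), 327 ± 215 CPM in CLP mice and 27.7 ± 15.4 CPM in sham mice in glomeruli (adjusted p = 0.000688, edgeR) and 100.3 ± 40.7 CPM in CLP mice and 31.5 ± 41.5 CPM in sham mice in peritubular capillaries (adjusted p = 0.999, edgeR). Icam1, Akap12, Saa3, S100a9 and Il1rn all passed in glomeruli and in whole kidney and in neither arterioles nor peritubular capillaries, where Il1rn was not tested. Of all genes tested, 0.543% passed as higher with CLP in glomeruli, 2.07% in whole kidney, 0.0897% in arterioles and 0.0339% in peritubular capillaries. For Akap12 the glomerular means were 927 ± 580.0 CPM in CLP mice and 139 ± 35.02 CPM in sham mice, higher in both groups than in venules. For S100a9 they were 669.9 ± 252 CPM in CLP mice and 65.7 ± 41.2 CPM in sham mice. Selp, which did not pass in venules, averaged 135 ± 106 CPM in CLP mice and 14.3 ± 18.2 CPM in sham mice in arterioles, while in glomeruli and peritubular capillaries no group mean was over 3.52 CPM. Vcam1, likewise without a call in venules, passed in arterioles, where it averaged 947 ± 623 CPM in CLP mice and 175 ± 124 CPM in sham mice (adjusted p = 0.0398, edgeR).

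Whether the change with CLP differed in venules from the mean of the other 3 dissected compartments was tested in 32 libraries of the 8 mice, with the mouse as a block. None of 14272 genes passed (edgeR; 696 had an unadjusted p under 0.05), so no change is shown to be particular to venules. For Icam1 the venule change exceeded the mean of the others by 2.17 ± 1.05 on the log2 scale, for Akap12 by 1.89 ± 0.79 and for Selp by 4.04 ± 1.62, while for Mt1 it was -0.78 ± 0.27 and for Mt2 -0.60 ± 0.26 (SE; adjusted p = 1 for each, edgeR). The smallest p belonged to Ajuba, an adaptor of cell junctions and the cytoskeleton, which had 10.3, 43.9, 24.7 and 56.96 CPM in CLP mice, against 0.111, 0.840, 0.477 and 0.126 CPM in sham mice (difference 9.08 ± 2.24, adjusted p = 0.921, edgeR). In venules its CLP and sham mice did not overlap. Lmod1, of smooth muscle thin filaments, had 7.56, 1.88, 1.91 and 1.94 CPM in CLP mice, against 39.02, 37.96, 27.9 and 39.03 CPM in sham mice (difference -2.52 ± 0.67, adjusted p = 0.921, edgeR).

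At 24 h the venules of other CLP mice averaged lower levels of Icam1, Mt1 and Mt2 than those at 4 h, and Mt1 and Mt2 were also lower in sham mice. Libraries of the 24 and 72 h mice held fewer detected genes, and levels between times were not tested. Icam1 averaged 68.6 ± 12.8 CPM in CLP mice and 38.3 ± 32.1 CPM in sham mice at 24 h and 34.3 ± 31.9 CPM in CLP mice and 15.9 ± 17.1 CPM in sham mice at 72 h (SD, n = 4 each), so that the groups lay within each other's spread. Mt2 averaged 555 ± 301 CPM in CLP mice and 108 ± 27.9 CPM in sham mice at 24 h (log2 fold change 2.36 ± 0.43, adjusted p = 0.0696, edgeR), and Mt1 averaged 658 ± 402 CPM in CLP mice and 317 ± 93.4 CPM in sham mice. By 72 h the Mt1 means were 301 ± 176 CPM in CLP mice and 311 ± 73.8 CPM in sham mice. Saa3 did not have a lower mean at 24 h, with 335 ± 215 CPM in CLP mice and no counts in any sham mouse (adjusted p = 5.78e-05, edgeR). It was the 1 gene in 10065 (0.00994%) that passed as higher at that time. S100a9 averaged 85.5 ± 16.2 CPM in CLP mice at 72 h, when sham mice had no counts, and did not pass (adjusted p = 0.0658, edgeR). A direct test of the CLP change at 4 h against that at 24 h, in 16 venule libraries, called 3 of 12251 genes (0.0245%), none of them among the 7. Akr1c21, an aldo-keto reductase abundant in male kidney, averaged 1009.8 ± 293 CPM in CLP mice and 1018 ± 163 CPM in sham mice at 4 h and 342 ± 175 CPM in CLP mice and 1737 ± 489 CPM in sham mice at 24 h, a difference of 2.36 ± 0.44 on the log2 scale (adjusted p = 0.0402, edgeR). Acy3, an aminoacylase of proximal tubule, averaged 2069 ± 459 CPM in CLP mice and 2169 ± 429 CPM in sham mice at 4 h and 637 ± 243 CPM in CLP mice and 2452 ± 902 CPM in sham mice at 24 h (difference 1.899 ± 0.39, adjusted p = 0.0499, edgeR). Neither differed between groups at 4 h beyond its spread, and both were lower with CLP at 24 h. The third, Akap10, a kinase-anchoring protein, averaged 0.0678 ± 0.0783 CPM in CLP mice and 21.5 ± 14.5 CPM in sham mice at 4 h and 33.9 ± 30.2 CPM in CLP mice with no counts in sham mice at 24 h (adjusted p = 0.0499, edgeR). Leaving out 1 mouse at a time gave 0 to 4 calls.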

How the data were processed

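The deposited table holds raw counts of 34255 genes in 140 libraries of 28 mice, 7 groups of 4 mice with 5 compartments each. The authors made these counts from QuantSeq reads, per the labels, and the submitters' processing notes name STAR 2.7, HTSeq 0.13, featureCounts, SAMtools 1.9, FastQC 0.11.8 and MultiQC 1.7, as well as both GRCm38.p6 and GRCm39; which build was used is not given in the sources used here. Healthy mice carry 4 h in the table's column names and 0 h in the labels, and the labels were followed. No library pair held identical values.

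Counts of the 8 venule libraries at 4 h were scaled by TMM, filtered with filterByExpr and tested with the robust quasi-likelihood test of edgeR 4.0.16 (limma 3.58.1, R 4.3.3), with Benjamini-Hochberg adjustment at 0.05. The filter keeps a gene that is high enough in 1 group only. Medians of lists with many low genes can therefore lean towards members high in that group. Only this main test was run on simulated counts, drawn with its own fitted spread and without an outlying library, and its outcome there is not given here. Alternatives were DESeq2 1.42.0, RLE, voom with quality weights, no filter, other sets of libraries, the replicate number as a block and leaving out each mouse. Differences between compartments (mouse as block) and times were tested as interaction contrasts.

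Named were the 15 highest and 15 lowest fold changes among genes that passed, had counts in all 8 libraries, a mean of at least 5 CPM and no overlap of groups, filled to 10 per direction with the smallest p; members of lists that passed or were most abundant; the 6 most abundant genes counted in all mice of 1 group and at most 1 of the other; and the smallest p of each contrast. Other list members and the untested genes given with values were chosen after their values were seen. Members and lists were chosen with earlier results of these data known. Gene positions are from GENCODE M21 and promoters from RefSeq, of which 6 of the 7 genes that passed have a window. The counting's use of strand is not given in the sources used here, so reads of overlapping genes cannot be told apart.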

Additional observations from a re-analysis of the deposited data

Results flagged for a closer look

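Groups of 4 mice were checked for named genes and for library measures such as depth. Among these 86 groups, 16 held a mouse whose gap to the nearest other mouse took up most of the group's range (Dixon's 95% critical value). That value assumes normally distributed levels, whereas CPM was not put on a log scale, so no rate by chance is given. In all 16 the mouse was the highest of its group. CLP mouse 1 was that mouse for Saa3 (549 CPM), S100a9 (230.4 CPM), Vcam1 (885 CPM), Nfkb2 (194 CPM) and Mmp13 (115 CPM), each time as the highest. Sham mouse 4 was the highest of its group for Saa3 (7.53 CPM), Selp (13.4 CPM), Tdrp (81.1 CPM), and for Il1rn and Mmp13 (0.126 CPM each, 1 count). Sham mouse 2 was the highest sham mouse for Junb (42.5 CPM) and S100a8 (41.3 CPM), and sham mouse 1 for Lyz2 (142 CPM). Among genes near 0 in CLP mice, CLP mouse 3 was the highest for Tdrp (0.255 CPM), and CLP mouse 4 for Kantr (2.49 CPM) and Lrp4 (0.277 CPM).

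The CLP change at 4 h and at 24 h differed by the test of the difference for 3 genes. It was higher at 4 h by 2.36 on the log2 scale for Akr1c21 and by 1.899 for Acy3, both lower with CLP at 24 h. For Akap10 the fitted difference was -19.21, a value that depends on the prior count, since CLP mice at 4 h held single counts and sham mice at 24 h none.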

How the results depend on the processing

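The 7 genes that passed became 378 with DESeq2 (198 higher, 180 lower; all 7 among them), 20 with no filter on low counts (19 higher, 1 lower) and 0 with all 28 venule libraries in the fit (768 at an unadjusted p under 0.05). RLE size factors gave 7, genes counted in all 8 libraries 6, the 12 libraries of healthy and 4 h mice 6 (5 of the 7, without Icam1 and Il1rn) and limma voom with quality weights 5 (2 of the 7, Mt1 and Mt2). Leaving out 1 mouse at a time gave 2 to 16 genes, 2 to 15 higher and 0 to 1 lower: 2 without CLP mouse 1, and 16 without sham mouse 4. Leaving out both CLP mouse 1 and sham mouse 2, chosen after seeing the data, gave 4 genes, all higher, 2 of the 7. Mt1 and Mt2 lost their call with 28 libraries, where the smallest adjusted p of the 7 genes was 0.0624 (edgeR). The compartment difference gave 0 to 1 genes without single mice, and the difference between times 2 with RLE, 3 with 28 libraries and 0 to 4 without single mice. The causes were not tested.

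With the replicate number as a block, 20 genes passed, 20 higher and 0 lower, the 7 among them. Deviations of mice of the same number were weakly correlated, at 0.0116 to 0.0445 over 4 pairs, all above 0. Of 8 libraries, 6 correlated best with their own number in the other group. The main test was set without a block because mice of the same number are different animals. Whether mice of the same number share a batch was not tested.

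Of 659 values of 39 genes named above under up to 17 alternatives, 582 kept direction and side of the threshold, 32 lost the call, 45 gained it and 0 changed sign of a call. Of 561 list medians, 12 moved by more than their spread. A level below 3 counts, 0.286 to 0.504 CPM by library, could not be told from 0, which covers counting error only.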

Other observations

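Several gene groups outside inflammation and coagulation held no gene that passed in venules at 4 h (edgeR). Of 14 tubular injury genes 10 were tested, and 9 of 10 had a log2 fold change above 0 (50.8% of all genes tested) with a median of 1.29, which was 0.67 without CLP mouse 1. Timp1, an inhibitor of matrix metalloproteinases, was the only one of the 10 without overlap (1.92% of all genes tested had CLP above sham), with 37.9, 20.4, 58.5 and 32.6 CPM in CLP mice, against 0, 0, 0.191 and 19.3 CPM in sham mice (log2 fold change 2.93 ± 1.704, adjusted p = 1.00, edgeR). Cd44, a hyaluronan receptor, had 200.2, 58.3, 22.8 and 21.8 CPM in CLP mice, against 27.7, 0.168, 7.25 and 12.4 CPM in sham mice (log2 fold change 2.67 ± 1.10, adjusted p = 1.00, edgeR). Of 16 genes of the unfolded protein and integrated stress response 12 were tested, with a median of 0.72. Ddit3, a stress-induced transcription factor, had 0.398, 27.3, 90.2 and 68.7 CPM in CLP mice, against 19.01, 7.22, 0 and 0.126 CPM in sham mice, with overlap. The medians were 0.21 for 13 tested targets of PPAR-alpha, 0.01 for 18 subunits of the respiratory chain, -0.05 for 11 Kruppel-like factors and -0.02 for 12 clock genes, against 0.02 for all genes tested. Each of these 4 medians changed sign under some alternatives, within -0.08 to 0.37, -0.12 to 0.24, -0.34 to 0.29 and -0.41 to 0.61 in that order. CLP mice all lay above sham mice for 2 of 11 Kruppel-like factors (Klf11 and Klf13) and 1 of 12 clock genes (Cry2), against 1.92% of all genes tested, and for no respiratory chain subunit or PPAR-alpha target.

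Some genes were counted in every mouse of one group and in at most 1 of the other. There were 87 such genes with counts in all CLP mice and 78 with counts in all sham mice. The numbers were thus similar in both directions. How many such genes low counts alone would give was not tested, and no share of the genes screened is given. Being in either set is therefore not taken by itself as a change with CLP. Mmp13, a collagenase, had 115, 9.67, 20.4 and 20.6 CPM in CLP mice, against 0, 0, 0 and 0.126 CPM in sham mice, in all 1247 counts in CLP mice and 1 in sham mice, and did not pass (adjusted p = 0.0629, edgeR). Bcl6b, a transcriptional repressor of endothelium, had 18.97, 71.8, 15.2 and 15.7 CPM in CLP mice, against 7.96, 0, 0 and 0 CPM in sham mice. Msr1, the scavenger receptor of macrophages, had 51.1, 7.25, 5.99 and 44.5 CPM in CLP mice, against 6.41, 0, 0 and 0 CPM in sham mice, and Fgd2, an exchange factor for Cdc42 in myeloid cells, had 50.4, 28.5, 4.33 and 0.139 CPM in CLP mice, against 0, 0, 20.5 and 0 CPM in sham mice. In the other direction, Lrrc1, a scaffold of epithelial polarity, had 0, 0, 12.6 and 0 CPM in CLP mice, against 34.4, 26.4, 25.9 and 38.5 CPM in sham mice, and Rem1, a small GTPase, had 0, 0.134, 0 and 0 CPM in CLP mice, against 23.3, 16.96, 65.7 and 0.126 CPM in sham mice. Apart from Il1rn, none of the 6 most abundant in each direction passed.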
